A study of Mus musculus with 23 samples.

Results

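The genes described are 7 members of the Nodal, Lefty and activin pathway, out of 55573 genes in the count files: the ligand genes Nodal and Inhbb, the coreceptor gene Tdgf1, the secreted inhibitor genes Lefty1 and Lefty2, and the intracellular inhibitor genes Smad7 and Skil. They were chosen by name, with their levels in knockout and wild-type cells already known from an earlier analysis of the same libraries. Their differences between untreated knockout and wild-type cells are therefore given as a description with no p-value, and the number of members past the threshold, given once, supports nothing. In those cells the Lefty transcripts were more abundant in knockout (Lefty1 by 1.26 with SE 0.14 and Lefty2 by 1.45 with SE 0.11 on the log2 scale over both sets), Nodal was modestly more abundant (0.46, SE 0.13), and Inhbb was scarce (-2.67, SE 0.31). After retinoic acid Lefty1, Lefty2, Nodal and Tdgf1 fell in both genotypes, and no member differed between genotypes by the test.

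The series measured the 3′ ends of polyadenylated RNA (QuantSeq) in mouse embryonic stem cells (ESCs) with and without the gene Set, whose product binds histones and inhibits the phosphatase PP2A. Its title links SET to differentiation through p53 and β-catenin. All cells were grown on mouse embryonic fibroblast feeders in serum with leukemia inhibitory factor. R1 ESCs came in 2 sets titled separately, each with wild type (WT) and the lines KO1 and KO2, all labelled SET-/-. The names of the deposited files carry other numbers for KO1 in set 1 than in set 2, and likewise for KO2, so a line title may not stand for the same clone in both sets. Set 1 held 2 WT, 2 KO1 and 2 KO2 samples, and untreated set 2 likewise 2 of each after libraries with the same title code were summed. Set 2 also held 1 WT and 2 KO samples kept 4 d in retinoic acid (RA), an inducer of differentiation, both KO samples being titled KO1, although their file names carry the number of set 2 KO1 for 2h and that of set 2 KO2 for 2i. KH2 ESCs, built to take inducible transgenes, expressed SETa with an HA tag under a doxycycline-responsive promoter and were sampled without doxycycline (Dox) and after 1 μg/mL of it for 24 h, with 2 samples each. Samples are named by title code, 1a to 1f in set 1 and 2a to 2i in set 2. The labels do not say that samples of a group came from separate cultures, so each p-value is set against a spread that may be no more than technical.

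Nodal and the activins, which are dimers of inhibin β subunits, bind type I and type II activin receptors. Nodal also needs the membrane-anchored coreceptor Cripto, the product of Tdgf1. The receptors phosphorylate SMAD2 and SMAD3, which enter the nucleus with SMAD4 and act with partners such as FOXH1. The Lefty proteins are secreted antagonists of Nodal and its coreceptor, and their genes are themselves SMAD2/3 targets, so the pathway limits itself. SMAD7 blocks the receptors and the protein SnoN, encoded by Skil, represses SMAD-driven transcription. In mouse ESCs and the early epiblast, Nodal signalling is known for a part in the exit from naive pluripotency and for patterning mesoderm and endoderm.

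Samples held 806412 to 1445013 counts in set 1, 2833064 to 10217040 in untreated set 2, 3904924 to 5047363 after RA and 4848478 to 6472695 in KH2 cells, so set 1 gives the least precise values. Set itself, the check of the labels, stood at 17.3 to 25.9 CPM (counts relative to the library total after TMM scaling) in set 1 KO against 977 and 1020 in WT, but at 272 to 562 in set 2 KO against 1191 and 1401 in WT. The labels do not place the edit within the gene, and a 3′ tag outside an edited part would not test it. In KH2 cells Set stood at 955 and 1016 CPM without Dox and at 1119 and 1263 with it; whether the transgene RNA carries the counted 3′ end is not given either. The 10 pluripotency markers were present in all untreated groups. Their summed level was 1831 to 2036 CPM in set 1 KO against 3671 to 3823 in WT, and 2865 to 3285 in set 2 KO against 4051 to 4413 in WT. Over both sets 8 of the 10 fell in KO by edgeR's quasi-likelihood test, beside 8.63% of all genes lower. Of these markers Pou5f1 was scarce in set 2, at 0.74 to 4.63 CPM in KO against 5.17 and 9.17 in WT, so it adds little to the sums.

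Markers of other cells moved with genotype too. The summed level of 15 fibroblast markers was 270 to 451 CPM in set 1 KO against 31.0 and 61.9 in WT, and 341 to 480 in set 2 KO against 238 and 289 in WT. Lum was at 0 in all of set 1 and in set 2 WT, and Postn and Dcn were at 0 in set 1 WT. Over both sets 6 of the 11 fibroblast markers tested rose and none fell, beside 10.4% of all genes higher and 8.63% lower. The summed level of 12 extraembryonic endoderm markers was 1121 to 1585 CPM in set 1 KO against 538 and 650 in WT, and 965 to 1099 in set 2 KO against 536 and 573 in WT. Of the 10 tested 7 were higher over both sets, beside the same 10.4% of all genes. Afp was at 0 in all of set 1, and Ttr in set 1 WT. Of the 8 neural markers 4 were tested, of which 1 rose and 2 fell. The part of these cell types in the values below was not tested. In bulk RNA a change in the share of cells of a type and a change of RNA per cell cannot be told apart.

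The untreated set 2 libraries were split into 2 sub-batches, called A and B here, that no title names. They were separated at the largest gap of the first principal component (33.9% of the variance after group means were removed), and each held 2 WT libraries and 3 KO libraries, from both KO lines. The gap was 18.5, against a span of 19.5 within A and 14.4 within B, so the 2 may not be distinct batches. Where a title code had several libraries, they lay in different sub-batches. The summed samples mixed A and B in unlike parts. Of the 10217040 counts of 2b, 7941952 came from its library in A, while 2c lay in B alone and 2f in A alone. The set 2 values of summed samples therefore carry the sub-batches unequally in WT and KO. Because several members differed between sub-batches, their values are given below within each.

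Nodal, on chromosome 10 (GRCm38, 61417972 to 61425338, plus strand), encodes the ligand that gives the pathway its name. Inhbb, on chromosome 1 (119415465 to 119422248, minus strand), encodes the inhibin βB subunit, from which activin B is made. Tdgf1, on chromosome 9 (110939603 to 110946158, minus strand), encodes the coreceptor. From RefSeq promoter entries on GRCm38.p6, the 250 bases before each start are shown for these 3 of the 7 members, all of which fell in WT after RA. Windows of the other members are not shown and were not searched, although Lefty1 and Lefty2 fell in WT too. Capitals mark matches to AATNNACA, a core of the FOXH1 site, and to CAGAC, the SMAD box, searched on both strands.
Nodal (chr10:61417722-61417971, plus strand): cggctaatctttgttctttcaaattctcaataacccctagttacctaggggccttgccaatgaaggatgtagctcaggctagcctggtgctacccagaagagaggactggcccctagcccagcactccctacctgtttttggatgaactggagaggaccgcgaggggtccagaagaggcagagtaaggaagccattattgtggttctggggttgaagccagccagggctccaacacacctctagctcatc
Inhbb (chr1:119422249-119422498, minus strand): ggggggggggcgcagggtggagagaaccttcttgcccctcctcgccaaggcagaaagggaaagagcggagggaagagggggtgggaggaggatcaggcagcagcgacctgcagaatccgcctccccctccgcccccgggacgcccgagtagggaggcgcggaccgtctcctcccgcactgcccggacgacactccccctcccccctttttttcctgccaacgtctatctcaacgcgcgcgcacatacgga
Tdgf1 (chr9:110946159-110946408, minus strand): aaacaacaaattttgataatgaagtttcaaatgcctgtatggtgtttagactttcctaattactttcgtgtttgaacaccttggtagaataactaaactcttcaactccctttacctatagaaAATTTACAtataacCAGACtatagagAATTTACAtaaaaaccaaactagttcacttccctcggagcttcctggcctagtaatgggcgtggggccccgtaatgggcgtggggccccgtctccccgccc

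The Tdgf1 window held 2 matches to AATNNACA, with left ends at -127 and -101 from the start, and 1 match to CAGAC between them at -113, none overlapping another. Of 32851 promoter windows of the same length, 10.9% held AATNNACA and 42.2% held CAGAC. The Nodal and Inhbb windows held neither, which says only that these letters are not in these windows. The palindromic SMAD site GGCGCC, present in 9.59% of windows, was in none of the 3. The Inhbb window was 68.0% G and C with 21 CpG dinucleotides, the Nodal window 53.2% with 3 and the Tdgf1 window 42.0% with 7, against a median of 52.4% over all windows.

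Nodal stood at 42.6 CPM in 1a and 31.9 in 1b, the set 1 WT samples, and at 45.4 in 1c, 53.4 in 1d, 49.4 in 1e and 53.7 in 1f, the KO samples. Every set 1 KO sample was above both WT samples. In untreated set 2 it stood at 36.8 in 2a and 49.4 in 2b (WT) and at 55.3 in 2c, 62.7 in 2d, 69.0 in 2e and 54.9 in 2f (KO). The groups again did not overlap. The log2 difference was 0.45 (SE 0.22) in set 1 and 0.48 (SE 0.15) in set 2. Within sub-batch A the WT libraries reached 42.9 and 53.8 CPM, just below the KO range of 54.4 to 77.1. Within sub-batch B they were lower, at 30.5 and 31.1, against 52.8 to 71.9 in KO. Across conditions Nodal was highest in KH2 cells, at 101 ± 0.70 CPM with Dox (SD, n = 2) and 81.2 ± 1.94 without (SD, n = 2). Set 2 KO (60.5 ± 6.73, n = 4), set 1 KO (50.4 ± 3.92, n = 4), set 2 WT (43.1 ± 8.89, n = 2) and set 1 WT (37.2 ± 7.60, n = 2) followed. Set 1 KO overlapped set 2 WT, and set 2 WT overlapped set 1 WT, while the other neighbours did not overlap.

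Inhbb gave 31 and 27 counts in set 1 WT, or 25.9 and 23.3 CPM, and 3, 0, 1 and 4 counts in the KO samples 1c, 1d, 1e and 1f. No set 1 KO sample passed 3.32 CPM. In untreated set 2 the WT samples gave 12.9 and 16.7 CPM, and 2c to 2f gave 1.48, 3.90, 3.68 and 3.64. KO and WT were far apart in both sets. The log2 difference was -3.89 (SE 0.52) in set 1 and -2.16 (SE 0.29) in set 2. Inhbb was lower in KO within sub-batch A (2.87 to 3.63 CPM against 14.8 and 18.6) and within sub-batch B (1.47 to 4.47 against 8.90 and 11.2). In KH2 cells it lay between, at 9.58 and 7.89 CPM without Dox and 7.45 and 7.26 with it. Among the set 2 KO samples, 2c stood apart below 3 close values.

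Tdgf1 stood at 1117 CPM in 1a and 799 in 1b (WT) and at 491, 451, 469 and 560 in 1c to 1f (KO). The KO samples were all lower, and the WT samples differed more from each other than the KO samples did. In set 2 the WT samples gave 464 and 426, and 2c to 2f gave 353, 374, 353 and 335. The log2 difference was -0.95 (SE 0.16) in set 1 and -0.32 (SE 0.10) in set 2. Set 2 WT (445 ± 26.6, SD, n = 2) overlapped set 1 KO (493 ± 47.9, SD, n = 4), so the sets differed by more than the genotypes of set 2 did. Within sub-batch A the KO libraries ran from 310 to 365 CPM, below 378 and 394 for WT, a difference of -0.19 (SE 0.12) on the log2 scale. Within sub-batch B the KO libraries ran from 351 to 373, below 515 and 527 for WT, a difference of -0.53 (SE 0.09). The KO libraries of A and B overlapped, while the WT libraries of A and B did not. KH2 cells lay at 669 and 738 CPM without Dox and at 683 and 690 with it, between the WT and KO samples of set 1.

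**Figure D1:**
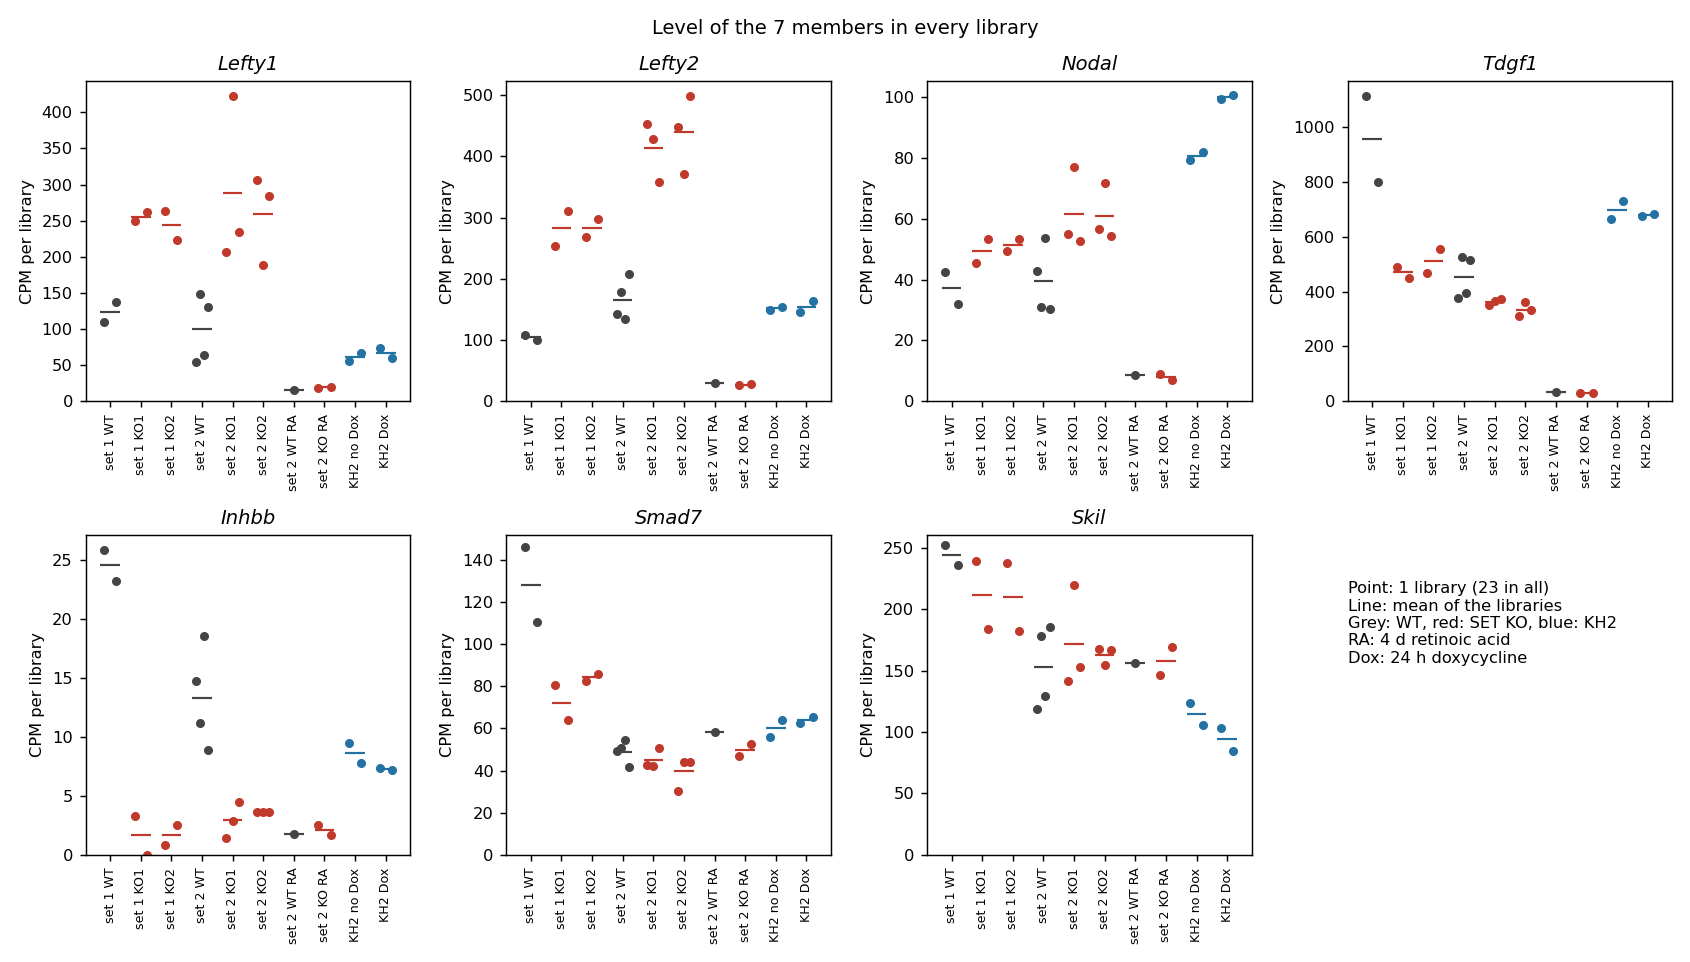
CPM of each of the 7 genes (vertical axes, scaled by TMM) in all 23 libraries by group (horizontal axes). Each point is 1 library and each line the mean of a group's libraries. Lefty1 and Lefty2 lie higher in the untreated KO groups and near their lowest after RA. Inhbb lies at most at 4.47 in any KO library.

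Lefty1 and Lefty2 lie on the plus strand of chromosome 1, at 180935022 to 180938400 and 180893108 to 180899103, with 35918 bases between them. Both encode secreted antagonists of Nodal. Because the genes are near copies, the last 500 bases of their longest transcripts were compared in 50-base windows. Of 451 windows of Lefty1, 11 (2.44%) were shared with Lefty2, and no other member shared a window with any gene. No exon of another annotated gene overlapped an exon of a member.

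Lefty1 stood at 109 CPM in 1a and 138 in 1b (WT) and at 250, 261, 263 and 225 in 1c to 1f (KO). In set 2 it stood at 107 in 2a and 79.7 in 2b (WT) and at 208, 309, 221 and 287 in 2c to 2f (KO). WT and KO were apart in both sets, at 124 ± 20.03 against 250 ± 17.4 CPM in set 1 and at 93.3 ± 19.2 against 256 ± 49.4 in set 2 (SD, n = 2 and n = 4). The log2 difference was 1.02 (SE 0.17) in set 1 and 1.49 (SE 0.17) in set 2. The KO samples of the sets overlapped.

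The sub-batches of set 2 changed the size of the Lefty1 difference. In sub-batch A the WT libraries stood at 54.8 and 64.1 CPM and the KO libraries at 284 to 423, a log2 difference of 2.49 (SE 0.18). In sub-batch B the WT libraries stood at 130 and 149 and the KO libraries at 189 to 234, a difference of 0.59 (SE 0.11). KO was above WT in each, with WT of B near WT of set 1. With libraries kept apart rather than summed, the set 2 difference of Lefty1 was 1.48 (SE 0.33). Across conditions Lefty1 in KH2 cells, at 62.1 ± 7.97 CPM without Dox and 67.2 ± 9.57 with it (SD, n = 2 each), was below all summed R1 samples without RA.

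Lefty2 stood at 109 and 99.9 CPM in set 1 WT and at 253, 311, 268 and 299 in 1c to 1f. In set 2 the WT samples gave 163 and 153, and 2c to 2f gave 455, 389, 396 and 503. The KO samples were well above WT in both sets, by 1.45 (SE 0.17) in set 1 and 1.47 (SE 0.12) in set 2 on the log2 scale. Set 2 was higher than set 1 in both genotypes. The difference was 1.75 (SE 0.13) in sub-batch A, with 428 to 499 CPM against 135 and 142, and 1.02 (SE 0.10) in sub-batch B, with 358 to 453 against 179 and 207. Lefty2 thus varied less between sub-batches than Lefty1 did in these values; the difference between the genes was not tested. KH2 cells, at 153 ± 3.70 CPM without Dox and 156 ± 12.9 with it, overlapped set 2 WT. In order, set 2 KO was above set 1 KO, then came set 2 WT with KH2 cells, then set 1 WT, and of these neighbours only set 2 WT and KH2 cells overlapped.

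**Figure D2:**
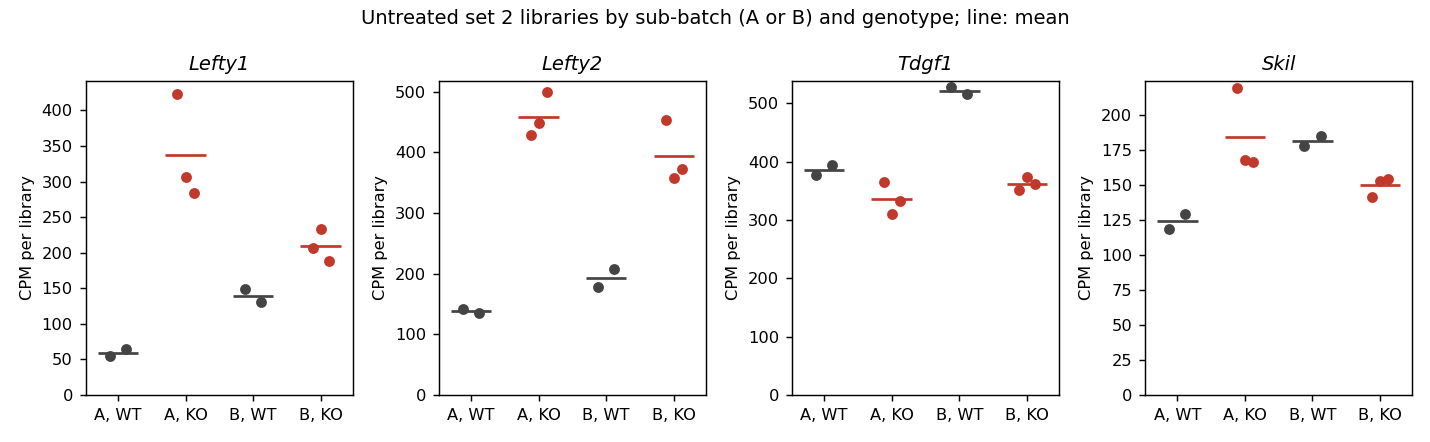
CPM (vertical axes) of Lefty1, Lefty2, Tdgf1 and Skil in the 10 untreated set 2 libraries, split by sub-batch A or B and by genotype. Points are libraries and lines their means. Skil ran from 166 to 219 in KO of A, above 119 and 130 in WT, but from 142 to 155 in KO of B, below 178 and 185 in WT.

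Smad7, on chromosome 18 (75367529 to 75395935, plus strand), encodes the inhibitory SMAD. It stood at 146 and 110 CPM in set 1 WT and at 80.8, 63.8, 82.3 and 86.5 in 1c to 1f. In set 2 the WT samples gave 50.4 and 52.5, and 2c to 2f gave 42.8, 47.9, 41.4 and 44.3. KO was lower without overlap in each set, by a narrow margin in set 2. The log2 difference was -0.71 (SE 0.19) in set 1 and -0.21 (SE 0.14) in set 2. Within sub-batch B it was 0.00 (SE 0.17), where KO at 42.6 to 50.7 CPM overlapped WT at 41.7 and 50.5. All set 1 samples were above all set 2 samples, untreated or not, and KH2 cells, at 56.4 to 65.7, overlapped set 1 KO.

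Skil, on chromosome 3 (31095058 to 31122577, plus strand), encodes SnoN. It stood at 252 and 236 CPM in set 1 WT and at 239, 184, 237 and 184 in 1c to 1f, so KO overlapped WT. In set 2 the WT samples gave 152 and 144, and 2c to 2f gave 142, 180, 160 and 168, again with overlap. The log2 difference was -0.21 (SE 0.17) in set 1 and 0.15 (SE 0.11) in set 2. The sub-batches went opposite ways, at 0.57 (SE 0.15) in A and -0.28 (SE 0.10) in B. Set 1 samples, at 184 to 252, were above set 2, and KH2 cells, at 85.1 to 125, were lowest.

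By the threshold of an adjusted p of 0.05, 6 of the 7 members differed between KO and WT over both sets (3 higher and 3 lower), beside 19.1% of all genes tested; Skil was the exception. In set 1 the count was 2 higher, beside 7.19% of all genes, and 3 lower, beside 5.10% (12.3% in either direction). In set 2 it was 3 higher, beside 5.64%, and 2 lower, beside 3.55% (9.19% in either direction). Nothing is read from these counts, since the contrast served to choose the members. With 1 sample left out in turn the count was 5 or 6 over both sets, 4 or 5 in set 1, and in set 2 it was 3 without 2a, 2b, 2d or 2e, 4 without 2c and 5 without 2f.

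The difference between the sets in the KO effect was 0.45 (SE 0.24) for Lefty1, 0.02 (SE 0.21) for Lefty2 and 0.02 (SE 0.26) for Nodal on the log2 scale, as set 2 minus set 1. It was 0.62 (SE 0.20) for Tdgf1, 1.77 (SE 0.65) for Inhbb, 0.49 (SE 0.23) for Smad7 and 0.35 (SE 0.21) for Skil. The 3 genes lower in KO over both sets were thus less so in set 2. Of the 7 members 0 passed the test, beside 0.828% of all genes, with 3 at an unadjusted p under 0.05 (Tdgf1, Inhbb and Smad7) and 0 by DESeq2. These values contain the contrast the members were chosen on.

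The KO lines were also set against each other, KO2 against KO1, a contrast that did not serve to choose the members. In set 1 Lefty1 stood at 256 ± 8.01 CPM in KO1 and 244 ± 26.8 in KO2, and Lefty2 at 282 ± 41.0 and 284 ± 22.0 (SD, n = 2 each). In set 2 Lefty1 stood at 259 ± 71.9 in KO1 and 254 ± 46.2 in KO2, and Lefty2 at 422 ± 47.1 and 450 ± 75.7. The samples of both lines overlapped in each of these comparisons. No member differed between lines by edgeR's quasi-likelihood test, in set 1 (beside 0.0102% of all genes) or in set 2 (beside 0.0237%), with 0 of 7 at an unadjusted p under 0.05 in each and 0 by DESeq2. The largest log2 difference was that of Inhbb in set 1, at 0.45 with an SE of 1.11, from 3 and 5 counts in all.

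Retinoic acid asks how the pathway stands once ESCs are driven out of self-renewal. Members were chosen with results of these samples known, so the p-values here are not independent evidence. After 4 d of RA Lefty1 stood at 16.0 CPM in 2g (WT) and at 18.5 in 2h and 19.8 in 2i (KO). Lefty2 stood at 30.1 in WT and at 25.9 and 27.6 in KO. Every RA sample was far below every untreated sample of set 2. Lefty1 fell by 2.54 (SE 0.31) in WT and by 3.78 (SE 0.21) in KO on the log2 scale, with adjusted p of 3.13e-06 and 6.37e-11 by edgeR. Lefty2 fell by 2.40 (SE 0.20) in WT and by 4.06 (SE 0.15) in KO, with adjusted p of 1.17e-10 and 2.64e-18.

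Nodal stood at 8.64 CPM in WT and at 9.17 and 6.96 in KO after RA. Tdgf1 stood at 34.0 in WT and at 28.7 in both KO samples, the steepest fall of a member in WT. Nodal fell by 2.36 (SE 0.29) in WT and by 2.94 (SE 0.20) in KO, with adjusted p of 1.88e-07 and 1.14e-12 by edgeR. Tdgf1 fell by 3.72 (SE 0.18) in WT and by 3.66 (SE 0.13) in KO, with adjusted p of 3.42e-15 and 1.82e-18. The ligand, its coreceptor and both antagonists were thus all lower after RA. The summed level of the 10 pluripotency markers was 669 CPM in WT and 740 and 750 in KO after RA. All 10 fell in each genotype, beside 22.5% of all genes lower in WT and 26.8% in KO.

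Inhbb stood at 1.83 CPM in WT after RA (7 counts) and at 2.59 and 1.69 in KO (13 and 8 counts), which overlapped untreated KO. In WT it fell by 3.04 (SE 0.55), with an adjusted p of 5.23e-05 by edgeR. In KO, where it was already scarce, the log2 difference was -0.65 (SE 0.42, adjusted p = 0.198 by edgeR). Smad7 stood at 58.7 CPM in WT and at 47.1 and 53.1 in KO, and Skil at 157 in WT and at 147 and 171 in KO. Neither intracellular inhibitor passed the test: Smad7 differed by 0.17 (SE 0.19) in WT and 0.15 (SE 0.14) in KO, and Skil by 0.07 (SE 0.16) and -0.07 (SE 0.11). In all 5 members fell in WT, beside 22.5% of all genes lower (47.3% in either direction), and 4 in KO, beside 26.8% lower (55.1% in either direction).

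**Figure D3:**
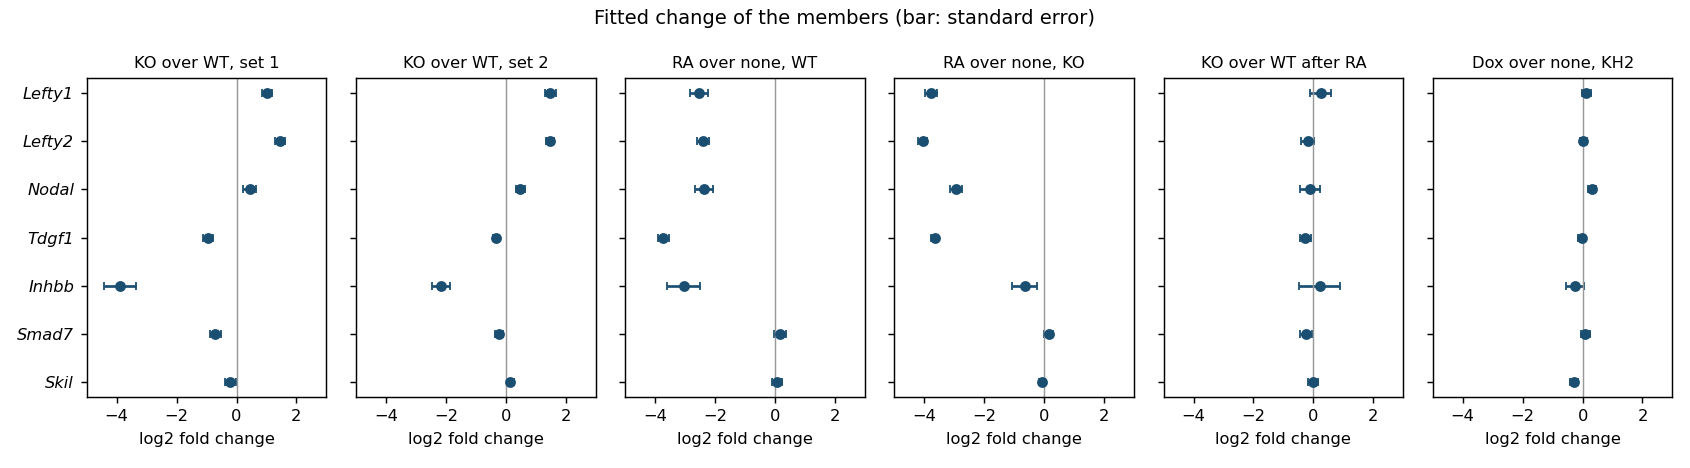
Log2 fold change of the 7 genes (horizontal axes) in 6 comparisons, 1 per panel, with bars of 1 standard error. Lefty1, Lefty2, Nodal and Tdgf1 lie at -2.36 or lower after RA in both genotypes, and within 0.27 of 0 between genotypes after RA.

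After RA 0 of the 7 members differed between KO and WT by edgeR's quasi-likelihood test, beside 0.396% of all genes, with 0 at an unadjusted p under 0.05 and 0 by DESeq2. The log2 differences were 0.24 (SE 0.34) for Lefty1, -0.19 (SE 0.21) for Lefty2, -0.11 (SE 0.35) for Nodal and -0.27 (SE 0.18) for Tdgf1. For Inhbb the difference was 0.21 (SE 0.69), for Smad7 -0.25 (SE 0.19) and for Skil -0.00 (SE 0.16). With 1 WT sample the spread comes from the other groups of set 2, and a p that misses the threshold does not show that the genotypes were alike. The RA effect in KO minus that in WT was -1.65 (SE 0.24) for Lefty2, -1.24 (SE 0.39) for Lefty1 and 2.39 (SE 0.74) for Inhbb. That difference contains the untreated KO effect that served to choose the members, so it is a description only; by the threshold 1 of 7 was called, Lefty2, beside 1.09% of all genes, and 0 were when libraries were kept apart rather than summed.

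The KH2 cells were given Dox to add SETa. Set itself differed by 0.28 (SE 0.10, adjusted p = 0.175 by edgeR) on the log2 scale and did not pass the test. The values below therefore describe Dox, and a member that misses the threshold does not show that SETa leaves it unmoved. Nodal stood at 79.9 and 82.6 CPM without Dox and at 100.4 and 101 with it, and Skil at 125 and 106 without and at 105 and 85.1 with it. The groups did not overlap for Nodal, Skil or Inhbb, and overlapped for the other members. With 2 samples on each side groups often separate without any effect, and the share of all genes that did so was not computed. Nothing is read from this separation. Nodal differed by 0.31 (SE 0.13, adjusted p = 0.219 by edgeR) and Skil by -0.28 (SE 0.13, adjusted p = 0.306) on the log2 scale. Lefty1 differed by 0.12 (SE 0.15), Lefty2 by 0.02 (SE 0.12) and Tdgf1 by -0.03 (SE 0.10), Inhbb by -0.25 (SE 0.29) and Smad7 by 0.09 (SE 0.14). Of the 7 members 0 passed the test, beside 1.80% of all genes, with 2 at an unadjusted p under 0.05 and 0 by DESeq2. The summed fibroblast markers were at 515 to 643 CPM with Dox against 892 to 958 without, and 5 of the 14 tested fell, beside 0.904% of all genes lower. Much of that sum was Col1a1 alone, at 302 and 358 CPM with Dox against 504 and 566 without. The log2 change was negative for 13 of the 14.

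The other genes of the pathway were taken as a list of 54, sorted by role. Over both sets 40 could be tested between KO and WT, of which 11 rose in KO and 0 fell by edgeR's quasi-likelihood test, beside 10.4% of all genes higher and 8.63% lower. The median log2 difference of the 40 was 0.22 and that of all genes -0.02. In set 1 there were 13 higher and 1 lower of 35, beside 7.19% and 5.10% of all genes, and the 14 calls became 8 without 1a, 9 without 1b or 1c and 9 by DESeq2. In set 2 there were 7 higher and 0 lower of 42, beside 5.64% and 3.55%, and the 7 calls became 1 without 2b, 13 without 2f, 12 in sub-batch B alone and 11 with no filter on low counts. Some genes passed the filter on low counts only through KO, where they are high, so these counts do not stand for the whole list.

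The target genes of the list are ones that the pathway drives in the primitive streak and in endoderm. Of 10 tested over both sets 6 rose, a count that is open to the same limit of the filter, among them the Wnt ligand gene Wnt3 by 2.24 (SE 0.39, adjusted p = 0.000621 by edgeR), the mesoderm regulator T by 1.73 (SE 0.48, adjusted p = 0.0224), the signalling ligand gene Fgf8 by 1.64 (SE 0.35, adjusted p = 0.00343), the endoderm regulator Sox17 by 1.28 (SE 0.21, adjusted p = 0.000125), and, named here outside the rule, the endoderm factor Foxa2 by 0.82 (SE 0.17, adjusted p = 0.00138). Sox17 stood at 8.61 and 12.5 CPM in set 1 WT against 18.7 to 29.9 in KO, and at 11.6 and 15.5 in set 2 WT against 19.8 to 42.9 in KO. Its WT and KO samples did not overlap in either set. Over both sets Wnt3, T and Fgf8 passed the filter on low counts only with KO samples, so their p-values there are no support.

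In set 1, 3 of these targets were near absent from WT. T had 0 counts in WT and 68 in KO, so it was at least 10.4-fold higher, taking 3 counts for the whole WT group as the limit. Wnt3 had 1 count in WT and 97 in KO, a ratio of 44.4 with a 95% counting interval of 7.79 to 1773. Fgf8 had 2 counts in WT and 53 in KO, a ratio of 12.1 with an interval of 3.20 to 103. In set 2 WT all 3 were present, T at 7.29 and 9.37 CPM, Wnt3 at 4.69 and 6.78 and Fgf8 at 13.6 and 14.3. There T in KO ran from 6.28 to 32.8 and overlapped WT, Fgf8 from 14.5 to 52.8 just above WT, and Wnt3 from 8.59 to 25.9. In set 2 alone Wnt3 rose by 1.88 (SE 0.36, adjusted p = 0.00344 by edgeR), a call lost without 2b (adjusted p = 0.203) and in sub-batch A alone (adjusted p = 0.186), while T differed by 1.39 (SE 0.51, adjusted p = 0.138) and Fgf8 by 1.49 (SE 0.43, adjusted p = 0.0719).

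Over both sets 1 of 5 ligand genes, 2 of 6 receptor genes and 1 of 3 inhibitor genes tested rose, beside 10.4% of all genes. The follistatin gene Fst, whose product binds activin, rose by 1.497 over both sets (SE 0.41, adjusted p = 0.0250 by edgeR), from 2.51 and 2.58 CPM in set 1 WT to between 20.8 and 58.7 in KO, and from 16.2 and 18.5 in set 2 WT to between 23.8 and 36.2 in KO. Over both sets Fst passed the filter on low counts only with KO samples, so that p-value is no support. Its KO effect was smaller in set 2 than in set 1 by 3.18 (SE 0.63, adjusted p = 0.0119), a call lost without 1a, 1b or 2b (adjusted p = 0.146, 0.100 and 0.0781). In set 1 the activin A subunit gene Inhba rose by 3.07 (SE 0.61, adjusted p = 0.00333), from 1.67 and 2.58 CPM to between 9.96 and 29.0, a call lost without 1a (adjusted p = 0.0513). In that set Inhba passed the filter on low counts only through KO, so its p-value there is no support. In set 2 Inhba ran from 16.2 to 108 CPM in KO and overlapped WT at 24.9 and 36.1. Tgfb2, a TGF-β ligand gene, rose by 3.12 in set 1 (SE 0.63, adjusted p = 0.00533), a size that ran from 2.18 to 8.08 under the alternatives. In that set Tgfb2 too passed the filter on low counts only through KO, so its p-value there is no support. The membrane inhibitor gene Tmeff1, from 189 and 221 CPM in WT to between 105 and 162 in KO, was the 1 gene of the list to fall in set 1 (log2 -0.64, SE 0.19, adjusted p = 0.0380), a call that 7 of 11 alternatives ended (adjusted p = 0.281 without 1a, also lost without 1b, 1c, 1d or 1e). In set 2 the protease gene Furin, whose product cleaves Nodal precursors, rose by 0.80 (SE 0.14, adjusted p = 0.00111) and the coreceptor gene Tgfbr3 by 1.22 (SE 0.28, adjusted p = 0.00909). Both calls were lost without 2b (adjusted p = 0.0614 for Furin and 0.321 for Tgfbr3), and that of Tgfbr3 also in sub-batch A alone (adjusted p = 0.203).

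The receptor, SMAD and ligand genes named whether or not they were called did not pass the test over both sets. Smad2 differed by 0.02 (SE 0.15) and Smad4 by -0.12 (SE 0.11) on the log2 scale, the activin receptor genes Acvr1b by -0.24 (SE 0.20) and Acvr2b by 0.13 (SE 0.12), and the ligand gene Gdf3 by -0.18 (SE 0.13). Smad3 differed by 0.42 (SE 0.20, adjusted p = 0.147 by edgeR). In set 1 alone it rose by 1.199 (SE 0.34, adjusted p = 0.0303), from 7.52 and 7.75 CPM to between 14.8 and 19.4, a call that 6 of 11 alternatives ended (among them without 1a, 1b, 1c or 1f). In that set Smad3 passed the filter on low counts only through KO, so its p-value there is no support. Foxh1, the SMAD partner, had too few counts to be tested, with 7 in set 2 WT and 22 in set 2 KO. None of the 7 tested SMADs and partners and none of the 7 turnover genes passed over both sets.

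Wnt3, Sox17, Foxa2, Tgfbr3 and Furin kept their calls over both sets under each of 20 alternatives. The call was lost in 10 of 20 for Tgfb2, in 6 for Tgfbr2, in 4 for Fst, in 3 for T and in 1 for Fgf8. Leaving out 2b ended it for T (adjusted p = 0.0803 by edgeR), and leaving out 1a ended it for Fst (adjusted p = 0.0551).

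**Figure D4:**
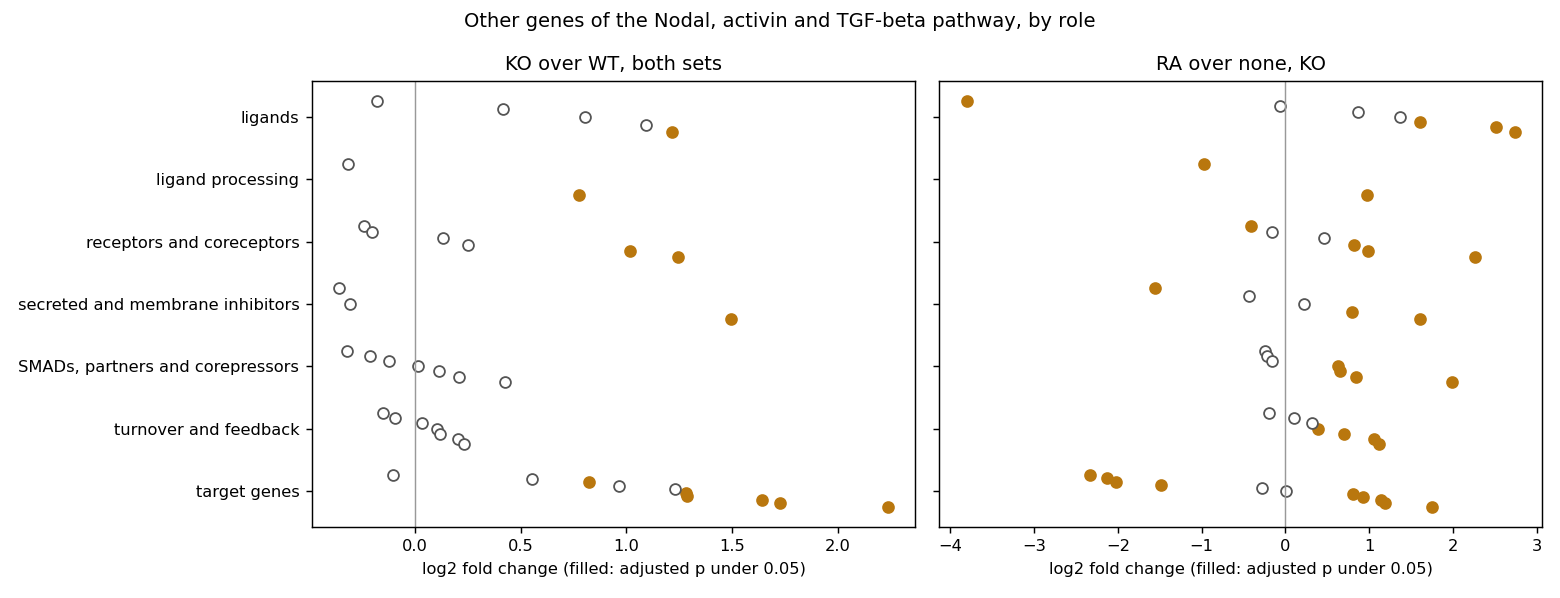
Log2 fold change (horizontal axes) of the tested genes of the 54-gene list by role, for KO over WT over both sets (left) and RA over none in KO (right). Filled points passed an adjusted p of 0.05. On the left the filled points all lie above 0 and 6 of them are target genes, while on the right they lie on both sides.

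After RA the list split. In WT 17 of 45 tested genes rose and 4 fell, beside 24.8% and 22.5% of all genes, and in KO 22 rose and 8 fell, beside 28.3% and 26.8%. The largest rise was that of Tgfb2, from 18.9 and 19.4 CPM in untreated WT to 417, and from between 17.8 and 43.5 in untreated KO to 213 and 239. It amounted to 4.44 (SE 0.25, adjusted p = 5.38e-10 by edgeR) in WT and to 2.74 (SE 0.17, adjusted p = 1.41e-09) in KO. The TGF-β receptor gene Tgfbr2 rose by 3.39 (SE 0.36) and 2.26 (SE 0.24), the ligand genes Tgfb3 by 3.05 (SE 0.69) and 2.51 (SE 0.55) and Gdf11 by 2.39 (SE 0.40) and 1.61 (SE 0.27), in WT and KO respectively. Wnt3 rose by 3.22 (SE 0.52) in WT. Smad3 rose by 2.02 (SE 0.23) in WT and 1.99 (SE 0.16) in KO, from 11.6 to 17.8 CPM in untreated cells to 56.8, 57.8 and 62.8. The summed fibroblast markers were 5418 CPM in WT and 5133 and 5959 in KO after RA, with 12 of 14 tested markers higher in WT and 13 in KO. That sum leaned on 1 marker, Acta2, with 66696 counts over all libraries against 15440 for Col1a1, the next. After RA Col1a1 stood at 385 CPM in WT and at 381 and 384 in KO.

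The falls after RA were led by Gdf3, a Nodal-related ligand gene of pluripotent cells, which went from 78.2 and 84.6 CPM to 4.98 in WT and from between 50.9 and 78.0 to 4.22 and 4.99 in KO. Its log2 change was -4.05 (SE 0.29, adjusted p = 6.06e-12 by edgeR) in WT and -3.81 (SE 0.20, adjusted p = 5.87e-15) in KO. The protease gene Pcsk6 fell by 1.55 (SE 0.34) in WT, the mesendoderm factor Eomes by 1.35 (SE 0.41) in WT, a call lost without 2b (adjusted p = 0.108), and by 1.49 (SE 0.27) in KO, and the corepressor gene Tgif1 by 0.66 (SE 0.16) in WT. In KO the streak genes Fgf8, T and Mixl1 fell by 2.33 (SE 0.39), 2.13 (SE 0.34) and 2.02 (SE 0.39), and the antagonist gene Cer1 by 1.56 (SE 0.63), a call that 9 of the alternatives ended. Smad4 rose by 0.67 (SE 0.16) in WT and 0.84 (SE 0.11) in KO, and Smad2 by 0.63 (SE 0.14) in KO. Acvr2b fell by 0.41 (SE 0.14) in KO, a call lost without 2i, while Acvr1b passed in neither genotype.

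Between genotypes after RA, 2 of 45 genes of the list rose, both endoderm factors, beside 0.287% of all genes higher. Foxa2 stood at 112 and 114 CPM in KO against 44.5 in WT, and Sox17 at 66.2 and 67.0 against 20.2. The differences were 1.33 (SE 0.19, adjusted p = 0.000436 by edgeR) and 1.70 (SE 0.27, adjusted p = 0.00149). Sox17 lost its call when libraries were kept apart rather than summed (adjusted p = 1.00 by edgeR). The summed extraembryonic endoderm markers were at 1863 and 2011 CPM in KO against 1017 in WT after RA, with 4 of 11 tested higher. In the other comparisons, 0 of 37 genes of the list passed for Dox and 0 of 35 and 0 of 42 between KO lines in sets 1 and 2 by edgeR, with 2, 3 and 7 at an unadjusted p under 0.05 and 0 by DESeq2 in each. Between lines 1 gene passed in set 1 without 1c, and 2 in set 2 without 2e.

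The genes whose levels followed the members most closely were ranked by Pearson's r of log2 CPM over the 19 samples, among 8675 genes averaging 10 CPM or more (8676 for Inhbb). The samples fall into groups, so r describes levels of groups and has no test. Tdgf1 was most like the pluripotency factor gene Nanog (r = 0.99, and 0.92 over the 16 samples without RA). Lefty1 was most like Rragd (0.96 and 0.90), Liph (0.94 and 0.93) and Pou3f1 (0.93 and 0.91). Lefty2 was most like Pmm1 (0.95 and 0.83), followed by Lefty1 (0.93 and 0.78). Nodal was most like Rbpms2 (0.95 and 0.70), Inhbb most like Gfod1 (0.91 and 0.93), Smad7 most like Nsmce2 (0.96 and 0.96) and Skil most like Smarca5 (0.91 and 0.93). The likeness of Nodal and of Lefty2 to their neighbours was thus weaker without the RA samples, and that of Inhbb, Smad7 and Skil was not.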

How the data were processed

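Mouse ESC libraries were made with a QuantSeq 3′ kit from 500 ng of RNA. The deposited values are whole-number counts per gene; per the file headers they came from featureCounts 1.6.0 with the Ensembl 97 annotation of GRCm38, and the submitters' processing notes name STAR 2.5.4b and Subread 2.0.0. Tags count 3′ ends, so a count is not scaled by gene length.

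The 23 libraries were reduced to 19 samples by adding up libraries that share a title code, which applied to 2a, 2b, 2d and 2e. Genes were kept by filterByExpr (minimum count 10, minimum total 15), scaled by TMM and tested with edgeR 4.0.16 (glmQLFit, glmQLFTest, robust) in R 4.3.3. All adjusted p-values are Benjamini-Hochberg values over all genes tested, with a threshold of 0.05. A set term entered the fit of both sets, and the RA comparisons used group means over 9 set 2 samples. CPM come from the same scaling. Intervals and limits from 3 counts (0.294 to 3.72 CPM per library or sample) cover counting error only, and these reads carry no stated molecular identifiers.

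The members, the 54-gene list and the marker lists were chosen with earlier results of these data known. Named genes were the 7 members, up to 6 called genes of the 54 with the largest change in each direction and comparison, Acvr1b, Acvr2b, Smad2, Smad3, Smad4, Foxh1 and Gdf3, and the 3 genes most like each member by Pearson's r of log2 CPM (prior count 2), of which the text gives the first or more. The results of 1 gene of the list that the rule names are not reported here, though the counts include it.

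Alternatives were every library as its own sample, DESeq2 1.42.0 (size factors, and its Wald test), no filter, a replicate block, each sub-batch alone, counts summed per line, KO1 alone as the RA control, and each sample left out. The scripts were tested on simulated data. The reported fits did not pair samples by replicate number.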

Additional observations from a re-analysis of the deposited data

Results flagged for a closer look

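Among the 4 untreated set 2 KO samples, Inhbb in 2c stood at 1.48 CPM (4 counts), apart from 3.64, 3.68 and 3.90 in the others, with a gap of 0.892 of the group's range and past Dixon's critical value. In all 14 groups of 4 were examined, and chance flags about 1 in 20.

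The KO effect on Fst differed between the sets by -3.18 on the log2 scale (set 2 minus set 1, adjusted p = 0.0119 by edgeR), and leaving out 1a, 1b or 2b ended that call.

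The RA effect also differed between KO and WT for Lefty2, Tgfb2 and Furin, given here as KO minus WT on the log2 scale. It was -1.65 for Lefty2, a value that contains the contrast the members were chosen on. For Tgfb2 it was -1.69 (adjusted p = 0.0169 by edgeR), from 19.1 to 417 CPM in WT and from 32.8 to 226 in KO. For Furin it was -1.12 (adjusted p = 0.00520 by edgeR). With libraries kept apart rather than summed, the adjusted p became 0.413 for Tgfb2 and 0.284 for Furin. The Tgfb2 call also ended by DESeq2 and without 2a, 2b or 2h, and the Furin call without 2b or 2i.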

How the results depend on the processing

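Of 987 values of members under the alternatives 26 lost a call and 3 gained one. The sign changed in 58, and in 0 of these was the reported or the alternative value called. Numbers of genes called, over all genes tested, moved as follows. Over both sets 2194 became 1426 with counts summed per line (1553 to 2416 with 1 sample left out). In set 1 1200 became 570 without 1a, the lowest, and at most 1388 without 1d. In set 2 1165 became 759 with libraries kept apart, 447 with the replicate block and 434 in sub-batch A alone, and ran from 195 without 2b to 2335 without 2f. For the difference between sets 99 became 171 with no filter and 42 with the block (22 without 1a to 127 without 1d). Between KO lines 1 became 25 with no filter in set 1 (1 to 196, the highest without 1c), and in set 2 3 became 22 with no filter and 1 with libraries kept apart (1 to 56, the highest without 2e). For Dox 229 became 127 by DESeq2 and 724 with the block (6 to 234). For RA 6933 in WT ran from 5558 to 7224 and 8074 in KO from 6191 to 7919. After RA 58 became 8 with libraries kept apart and 94 with no filter (15 to 98). For the RA effect in KO minus WT 160 became 2 with libraries kept apart, 98 by DESeq2 and 284 with no filter (27 to 388). The causes were not tested. Deviations of same-numbered libraries from their group means correlated at -0.06 to 0.03 in set 1, -0.21 to 0.17 in set 2 and 0.02 in KH2 cells. In set 1 and KH2 cells each group held 2 samples, whose deviations mirror each other. There these values cannot decide whether the numbers pair samples. Under the replicate block 3 of the 7 members were called in set 2 in place of 5, and 3 other pathway genes in place of 7, with Wnt3 (adjusted p = 0.0568 by edgeR) and Tgfbr3 (0.0804) among those lost. The shallow set 1 limits low genes such as Inhbb, T and Wnt3.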
